A study of Rattus norvegicus with 2 samples.

Results

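In all, 37 genes for subunits of the voltage-gated calcium and sodium channels were described in 2 samples of rat heart, each compared on a 2-colour oligonucleotide array with a pool of cultured adult cells. The genes were those whose platform symbol begins with Cacn, or with Scn followed by a digit; the epithelial Scnn1 channels were left out. They made up 37 of the 15613 genes with a symbol and were read by 54 of 20417 named probes. Of the 37, 19 encode the pore-forming alpha subunits and 18 the accessory subunits.

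The heart material was untreated and taken without culture, and is called somatic heart cells in the series text. Its RNA carried Cy3. The pool, mix1, joined rat bone marrow cells and rat primary ear fibroblasts, each cultured in medium with fetal bovine serum, and its RNA carried Cy5 on both arrays. Strain, age and sex of the rats are not given in the labels, nor whether the 2 heart samples came from separate animals, so the p-values reflect how far this pair of samples lay apart and the replicates may be technical. Tissue and culture cannot be told apart, since heart was never cultured and mix1 was. Mix1 counted as 1 control sample and its own spread entered no test, and with no dye swap a probe's dye bias stays in its ratio.

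Voltage-gated calcium and sodium channels open when the cell membrane depolarises. The alpha subunit forms the pore, the voltage sensor and the gates by itself; accessory subunits (alpha2delta, beta and gamma for calcium channels, beta for sodium channels) carry the alpha subunit to the membrane and tune its opening and closing. In heart muscle the sodium current drives the upstroke of the action potential, and the L-type calcium current sustains the plateau and triggers calcium release from the sarcoplasmic reticulum.

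Promoters are shown for the 4 genes on which the results turn most: Scn4b and Scn7a, the accessory and the alpha gene with the highest ratio in heart, and Cacnb2 and Cacnb3, beta subunit genes that lay at opposite ends. Each run covers 250 bases before to 50 bases after a transcription start in RefSeq's annotation of the rat assembly GRCr8 and reads 5′ to 3′ on the strand of the gene. The E-box motif, CANNTG on both strands, which basic helix-loop-helix factors can bind, stands in capitals. Scn4b lies at chr8:54343623-54343922 on the plus strand and Scn7a at chr3:71846235-71846534 on the minus strand. The starts of Cacnb2 lie at chr17:82472965-82473264 and chr17:82596542-82596841, and that of Cacnb3 at chr7:131666301-131666600, all on the plus strand.
Scn4b: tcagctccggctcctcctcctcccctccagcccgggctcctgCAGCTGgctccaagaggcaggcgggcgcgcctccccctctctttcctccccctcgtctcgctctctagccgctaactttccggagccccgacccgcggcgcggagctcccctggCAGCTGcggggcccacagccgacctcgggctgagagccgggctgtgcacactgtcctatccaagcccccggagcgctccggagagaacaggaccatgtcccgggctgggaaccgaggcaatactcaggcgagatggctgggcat
Scn7a: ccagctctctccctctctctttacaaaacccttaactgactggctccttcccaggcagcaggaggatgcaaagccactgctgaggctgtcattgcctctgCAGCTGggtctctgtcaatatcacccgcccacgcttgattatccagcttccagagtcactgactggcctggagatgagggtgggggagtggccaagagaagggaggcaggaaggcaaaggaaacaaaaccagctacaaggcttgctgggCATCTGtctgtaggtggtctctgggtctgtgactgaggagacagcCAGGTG
Cacnb2, start 1: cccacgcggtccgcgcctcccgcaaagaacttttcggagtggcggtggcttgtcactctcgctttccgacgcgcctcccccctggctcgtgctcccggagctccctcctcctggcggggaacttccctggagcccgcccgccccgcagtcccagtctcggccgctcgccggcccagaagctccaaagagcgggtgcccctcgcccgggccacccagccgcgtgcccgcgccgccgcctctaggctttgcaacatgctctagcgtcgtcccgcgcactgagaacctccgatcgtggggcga
Cacnb2, start 2: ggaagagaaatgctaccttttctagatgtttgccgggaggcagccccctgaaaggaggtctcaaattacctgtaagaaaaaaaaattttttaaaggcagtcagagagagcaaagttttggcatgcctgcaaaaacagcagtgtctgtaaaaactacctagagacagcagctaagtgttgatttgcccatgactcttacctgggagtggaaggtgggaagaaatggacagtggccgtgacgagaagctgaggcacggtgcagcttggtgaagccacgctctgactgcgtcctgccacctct
Cacnb3: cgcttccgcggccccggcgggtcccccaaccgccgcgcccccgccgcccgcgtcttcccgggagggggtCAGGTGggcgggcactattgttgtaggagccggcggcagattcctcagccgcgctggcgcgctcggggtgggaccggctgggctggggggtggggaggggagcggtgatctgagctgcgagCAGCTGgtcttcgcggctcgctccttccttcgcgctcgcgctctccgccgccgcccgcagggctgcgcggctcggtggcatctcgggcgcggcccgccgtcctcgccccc

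The table held 30 promoters for 27 of the 37 genes. The promoter of Scn7a carried 3 E-boxes and those of Scn4b and Cacnb3 carried 2 each, while neither start of Cacnb2 carried one. Over the channel genes 20 of 30 promoters (66.7%) had the motif, against 72.1% of all 33469 promoters of this length. The MEF2 consensus, searched on both strands, was found in 0 of the 30 and in 3.29% of all promoters. CpG dinucleotides numbered 24 in the Scn4b promoter and 2 in that of Scn7a. They numbered 37 and 6 at the Cacnb2 starts and 44 in the Cacnb3 promoter. The 15 promoters of genes called higher held 2 to 66 (median 24). The 5 of genes called lower held 4 to 44 (median 7), and the 10 of uncalled genes 2 to 44 (median 10). The median was 13.5 over the 30 promoters and 7 over all promoters. The ranges overlapped, and a link between CpG count and ratio was not tested. A motif match is a description of these letters and not a binding site.

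All values below are log2 ratios of heart over mix1, read in the likely direction; the direction and the base of the deposited logarithm are not stated in the sources used here. A positive value is higher in heart. The direction rests on the series text, which speaks of heart compared with mix1, and on the cardiomyocyte markers: 12 of 12 were positive on both arrays (median 5.61, range 3.79 to 7.23), so their direction is no finding. Endothelium markers were higher in 10 of 10 (median 2.65), and fibroblast markers were lower in 11 of 11 (median -4.37). Neuron markers were mixed, with 4 of 18 higher and 7 lower (median -0.16), as were skeletal muscle markers, with 7 of 13 higher and 2 lower. Lung epithelium markers set the arrays apart, with a median of 0.17 on array 1 and 3.16 on array 2; their part in any channel result was not tested. In tissue RNA, fewer cells of a type and less RNA per cell cannot be told apart. A ratio gives no level, so genes are compared here by their difference between heart and mix1, and no spot intensity was used.

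The channel genes went both ways. In limma's moderated test across all genes, at an adjusted p of 0.05, 15 of 37 were higher in heart and 7 lower, and 15 were not called. Across all 15613 genes tested 72.9% were called, 31.4% higher and 41.5% lower, while of the channel genes 59.5% were called, 40.5% higher and 18.9% lower. The median of the channel genes was 0.02 against -0.09 for all genes. At a mean of at least 2-fold, 8 were higher (17.2% of all genes) and 3 lower (20.0% of all genes). Most ratios were small, and 20 of 37 (54.1%) lay within 0.5 of 0 against 39.9% of all genes.

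Alpha and accessory genes had similar counts and medians. Of 19 alpha genes, 8 were higher and 4 lower; their median was 0.02 and their range ran from -2.32 for Scn2a to 4.93 for Scn7a. Of 18 accessory genes, 7 were higher and 3 lower; their median was 0.02 and their range was wider, from -4.84 for Cacnb3 to 7.41 for Scn4b. At 2-fold, 4 of each class were higher, and 2 alpha genes and 1 accessory gene were lower. Both extremes of the channel genes were thus accessory genes, each read by 1 probe. The 19 alpha genes were read by 35 probes and the 18 accessory genes by 19, so averaging over probes applied mostly to alpha genes. Its part in the width of the ranges was not tested. Since subunit genes are not replicates, no test was made between the classes.

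**Figure D1:**
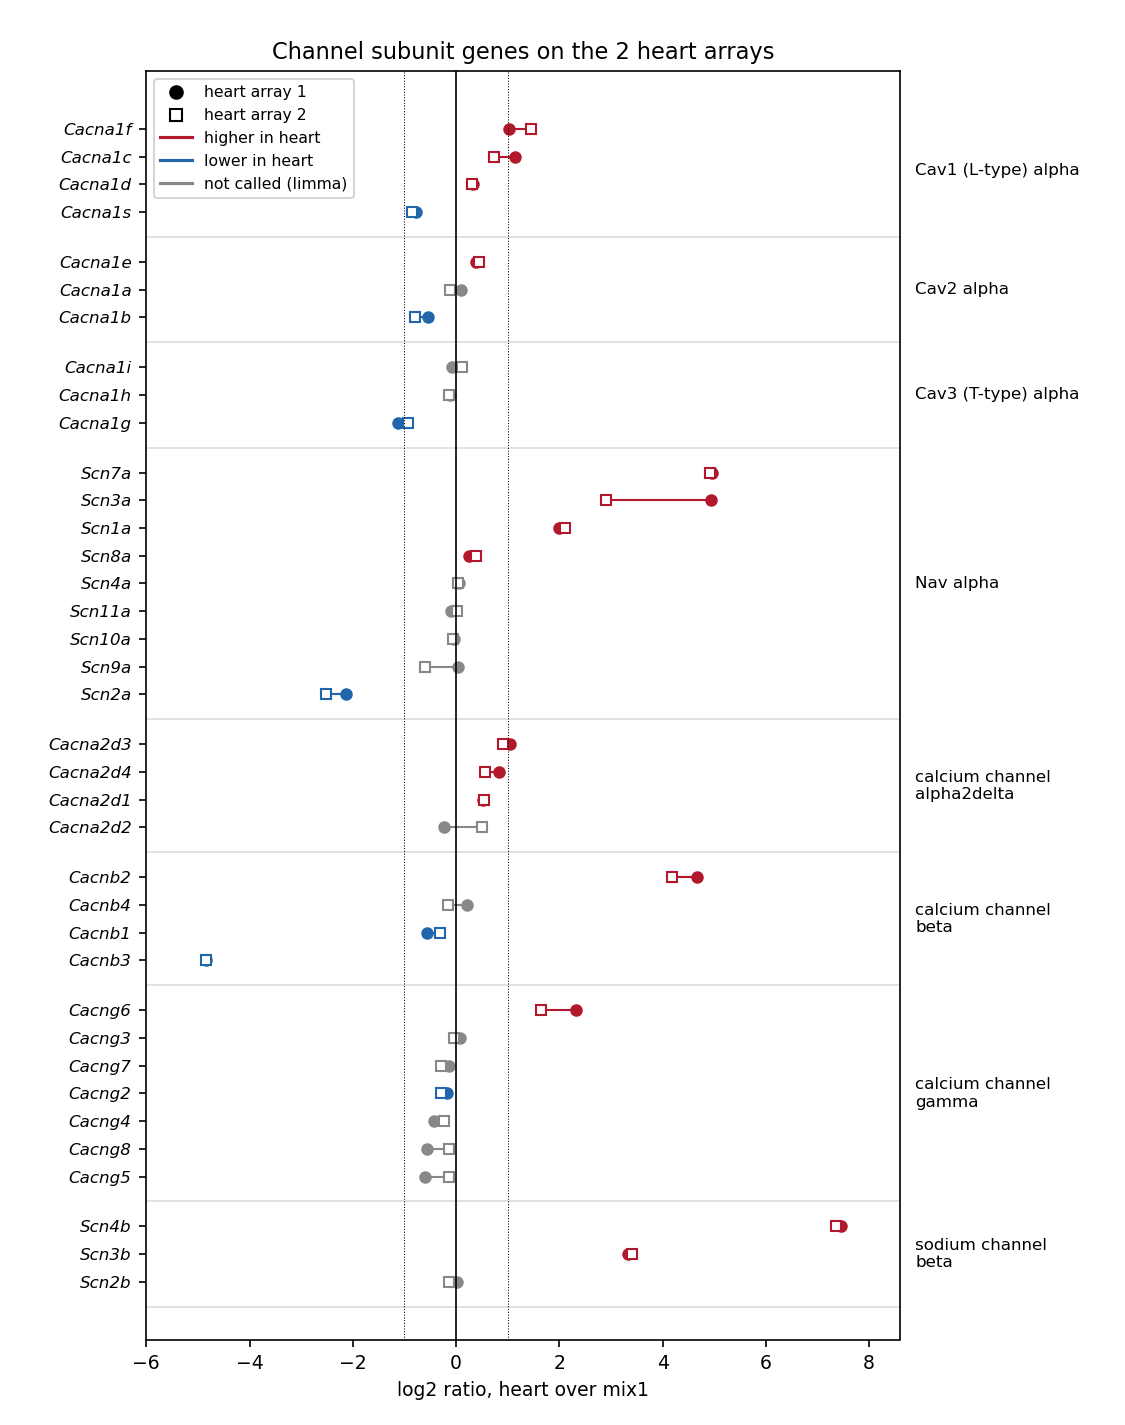
Log2 ratio of heart over mix1 (horizontal axis) for each of the 37 genes, grouped by subunit family, with filled circles for heart array 1, open squares for heart array 2, colours for the limma call and dotted lines at 2-fold. Scn4b lies farthest right at 7.46 and 7.36 and Cacnb3 farthest left at -4.83 and -4.85, both accessory genes, while 20 genes have a mean within 0.5 of 0.

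Among the L-type alpha genes, 3 of 4 were higher in heart and 1 lower. Cacna1c encodes Cav1.2, the main L-type pore of the working myocardium, and was at 1.15 on array 1 and 0.74 on array 2, a mean of 0.94 ± 0.29 (SD, n = 2; limma adjusted p 0.0243). Its 3 probes disagreed. One read 3.41 and 3.38 on the arrays, the second 0.36 and -0.09, and the third -0.33 and -1.07, so the gene mean matches none of them and only the first passed on its own (limma adjusted p 0.0012 over all named probes). Cacna1f, known mainly for retinal photoreceptors, was at 1.02 and 1.46 (mean 1.24 ± 0.31, limma adjusted p 0.0167). Cacna1d, the pore of Cav1.3 that serves sinoatrial pacemaking, was at 0.33 and 0.31, a difference under 2-fold. Its call was lost with the probe on which the arrays lay closest (0.06, limma adjusted p 0.186) and after centring the arrays (limma adjusted p 0.0641). Cacna1s, the voltage sensor of skeletal muscle, was lower, at -0.78 and -0.86 (mean -0.82 ± 0.05, limma adjusted p 0.00392). That call came from 1 of its 2 probes, at -1.69 and -1.99, while the other lay at 0.13 and 0.27.

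The Cav2 alpha genes, whose channels trigger transmitter release in neurons, showed small gene means over divergent probes. Cacna1e had a mean of 0.42 ± 0.05 and was called higher, but its 4 probes had means of 2.83, 0.10, -0.43 and -0.83, and 3 of them passed, 1 higher and 2 lower. Cacna1b had a mean of -0.67 ± 0.18 and was called lower, with probes at -2.62, -0.18 and 0.80. The outer Cacna1b probes both passed, in opposite directions (limma adjusted p 0.0039 and 0.0043). Cacna1a was not called, at 0.10 on array 1 and -0.12 on array 2. For Cacna1e and Cacna1b the sign of the ratio thus depended on the probe.

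Of the T-type alpha genes, whose channels open at low voltage and contribute to pacemaking, 1 was lower and none was called higher. Cacna1g was at -1.12 and -0.93 (mean -1.03 ± 0.14, limma adjusted p 0.0067). Cacna1h was at -0.11 and -0.14 and Cacna1i at -0.09 and 0.12, and neither passed.

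**Figure D2:**
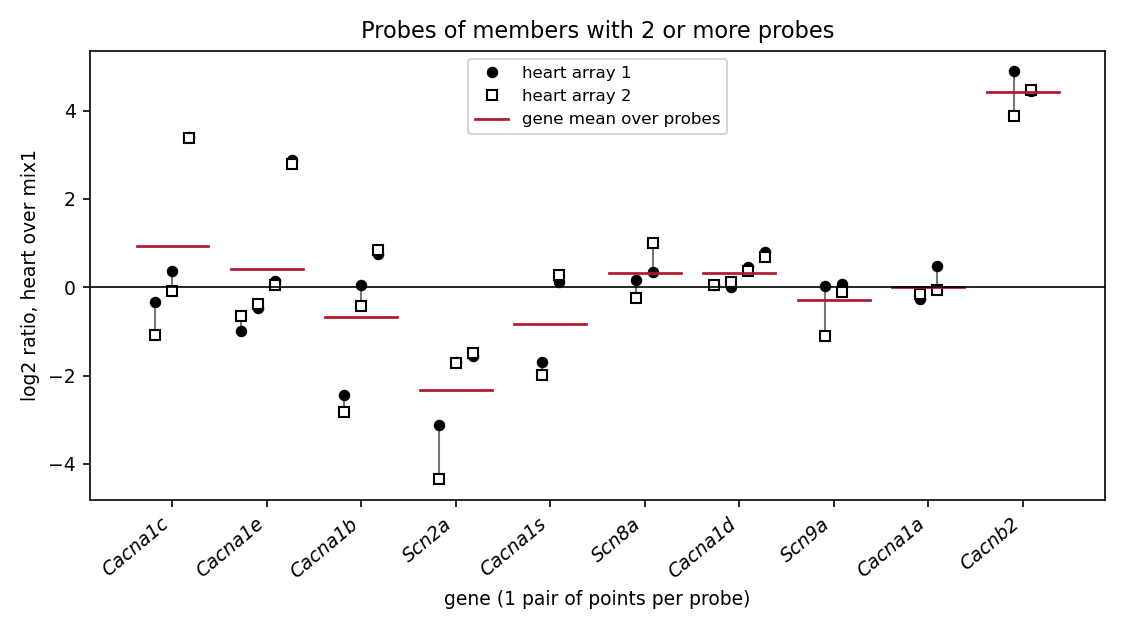
Log2 ratio of heart over mix1 (vertical axis) for the single probes of the 10 genes that several probes read, with filled circles for heart array 1, open squares for heart array 2 and a red line at the gene mean. In Cacna1c, Cacna1e, Cacna1b, Scn2a and Cacna1s the probe means span at least 4-fold, while both Cacnb2 probes have means near the gene mean of 4.42.

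Probes of the same channel gene often disagreed. In 5 of the 10 genes with several probes, probe means lay at least 4-fold apart, against 12.6% of 3768 such genes in all. Those 5 were alpha genes, but Cacnb2 was the only accessory gene among the 10, so the classes cannot be compared in this. The median range between probes was 1.37 for the channel genes and 0.75 for all; up to 4 probes read a channel gene, and the number of probes was not matched. Probe means of both signs occurred in 6 of the 10. The transcript region read by each probe was not used here. Of the 11 channel genes at least 2-fold from mix1, Cacnb2 and Scn2a had several probes and the other genes 1 each.

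The sodium channel alpha genes held the largest alpha ratios in both directions. Scn7a, which encodes the sodium-sensing channel Nax, was at 4.95 and 4.91 (mean 4.93 ± 0.03, 30.6-fold higher, limma adjusted p 0.0012). Scn1a, which encodes Nav1.1, was at 2.00 and 2.11 (mean 2.05 ± 0.08, limma adjusted p 0.00166). On both genes the arrays lay close together. Scn3a, the alpha gene of Nav1.3, was at 4.94 on array 1 and 2.91 on array 2, a mean of 3.92 ± 1.44 that passed at a limma adjusted p of 0.0323. It was the only channel gene whose arrays lay at least 2-fold apart, as did 2.16% of all genes, and array 2 was the lower one. Array 2 was also the array with the higher lung epithelium markers; their part in this difference was not tested.

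Scn2a (Scn2a1 on the platform), the alpha gene of Nav1.2 in neurons, was lower in heart at -2.13 and -2.51 (mean -2.32 ± 0.27, 4.99-fold lower, limma adjusted p 0.0048). All 3 of its probes were lower and passed, at means of -1.53, -1.70 and -3.73. Scn8a passed with a small mean of 0.32 ± 0.10, although neither of its 2 probes passed on its own. Scn4a, the skeletal muscle alpha gene, was at 0.05 on both arrays. Scn9a, Scn10a and Scn11a, known for sensory neurons, had means of -0.28, -0.05 and -0.05 and were not called, and Scn9a had opposite signs on the arrays, at 0.04 and -0.61.

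Some neighbouring channel genes had unlike ratios and others like ones. In the GRCr8 gene table Scn3a, Scn2a, Scn1a, Scn9a and Scn7a lie in this order on chromosome 3, with 4 protein-coding genes between Scn2a and Scn1a and 0 between the other pairs. Their means ran 3.92, -2.32, 2.05, -0.28 and 4.93. Scn3a and Scn2a, which adjoin each other, therefore stood on opposite sides. On chromosome 8 Scn2b (-0.06) adjoins Scn4b (7.41), and on chromosome 1 Cacng6 (1.98) adjoins Cacng8 (-0.35). Other neighbours lay close, all near 0: Cacng8 and Cacng7 (-0.35 and -0.21), Cacng4 and Cacng5 on chromosome 10 (-0.32 and -0.37), and Scn10a and Scn11a on chromosome 8 (both -0.05), with 1 gene between the last pair. Cacna1c and Cacna2d4 on chromosome 4 (0.94 and 0.69) and Cacna2d3 and Cacna1d on chromosome 16 (0.98 and 0.32) were positive in both genes, with 1 and 5 genes between them.

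Of the sodium channel beta genes, 2 of 3 were higher in heart. Their products are single-pass membrane proteins with an immunoglobulin-like outer domain. Scn4b, whose subunit can shape resurgent sodium current, was at 7.46 and 7.36 (mean 7.41 ± 0.07, 170-fold higher, limma adjusted p 0.0012). Of the 15613 genes, 16 had a larger mean. Were the deposited values natural logs, the same numbers would give 1650-fold for Scn4b, and every fold given here would be larger. Scn3b was at 3.32 and 3.42 (mean 3.37 ± 0.07, 10.3-fold higher, limma adjusted p 0.00121). Scn2b was not called, at 0.03 and -0.14. On Scn4b and Scn3b the arrays differed by 0.09 each, far less than their distance from 0.

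The calcium channel beta genes, whose cytoplasmic products bind the alpha subunit and bring it to the membrane, split most widely. Cacnb2, the main beta gene of cardiac muscle, was at 4.67 and 4.18 (mean 4.42 ± 0.35, 21.5-fold higher, limma adjusted p 0.0027). Its 2 probes had means of 4.46 and 4.39, and the second read 4.89 on array 1 and 3.89 on array 2. Cacnb3 was at -4.83 and -4.85 (mean -4.84 ± 0.01, 28.7-fold lower, limma adjusted p 0.0012). Cacnb1, the skeletal muscle form, was slightly lower at -0.56 and -0.31, and Cacnb4 was not called, at 0.21 and -0.16. Heart and mix1 thus differed in opposite directions for Cacnb2 and Cacnb3, on both arrays.

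The alpha2delta genes, whose extracellular products raise the number of channels at the surface, had small positive ratios. Cacna2d3 was at 1.05 and 0.91 (mean 0.98 ± 0.10, limma adjusted p 0.00487), Cacna2d4 at 0.82 and 0.56, and Cacna2d1, the form known from heart and skeletal muscle, at 0.52 and 0.53. These 3 passed, all under 2-fold in the mean. Cacna2d2 was not called, at -0.24 and 0.50.

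Of 7 gamma genes, 1 was higher, 1 lower and 5 not called. Cacng6, a relative of the skeletal muscle gamma subunit, was at 2.32 and 1.65 (mean 1.98 ± 0.47, limma adjusted p 0.0149). Cacng2, which encodes stargazin, an auxiliary protein of AMPA-type glutamate receptors, was slightly lower at -0.18 and -0.30 (limma adjusted p 0.0473). Cacng3, Cacng4, Cacng5, Cacng7 and Cacng8, most of them also known for such receptors, had means from -0.37 to 0.02 and did not pass. Cacng6 was the only gamma gene at least 2-fold from mix1.

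**Figure D3:**
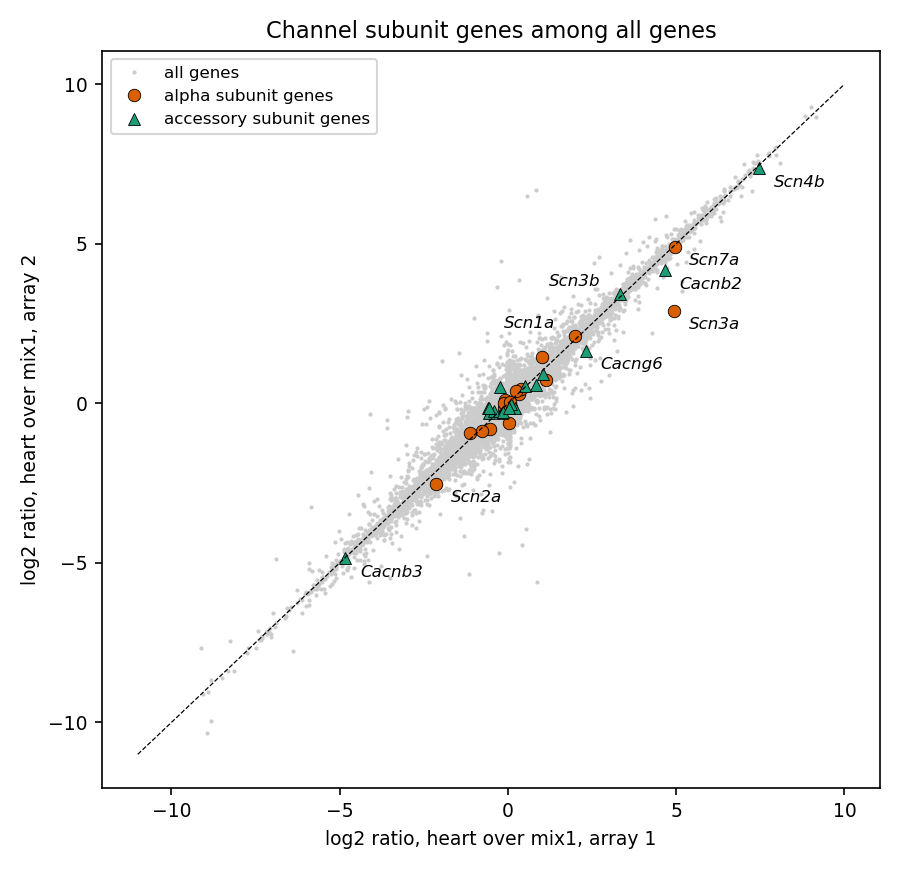
Log2 ratio of heart over mix1 on array 1 (horizontal axis) against array 2 (vertical axis) for all 15613 genes in grey, alpha genes as orange circles and accessory genes as green triangles; the dashed line marks equal values. Among the channel genes Scn3a lies farthest from the line, at 4.94 and 2.91, and most channel genes sit near the origin.

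The 2 arrays gave the same sign for 29 of 37 channel genes, and each of the 8 others was not called. The median absolute difference between arrays was 0.17 for the channel genes and 0.08 for all genes. At 2-fold, 10 channel genes were higher on array 1 and 8 on array 2; Cacna1c and Cacna2d3 crossed the line on array 1 alone.

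Genes for partners of the channels were also mixed. Of 21 measured regulators of calcium channels, 11 were higher (52.4%, against 31.4% of all genes) and 6 lower (28.6%, against 41.5%), with a median of 0.39 against -0.09. The largest were Rimbp2, a binding protein that ties calcium channels to release sites, at 5.10 and 5.30, Lrrc10, a cardiac regulator of the L-type channel, at 4.90 and 4.87, and Rrad, a small GTPase that restrains calcium channels, at 4.30 and 4.27. Cav3, the muscle caveolin, was at 3.21 and 3.12. Each of these 4 had arrays on the same side and close together.

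Of 21 measured regulators of sodium channels, 12 were higher (57.1%, against 31.4% of all genes) and 4 lower (19.0%, against 41.5%), a median of 0.60. The share called in either direction, 76.2%, was near the 72.9% of all genes. Fgf13, an intracellular FGF-like protein that binds the alpha subunit's tail, was at 3.78 and 3.59, and Usp2, a deubiquitinase, at 3.40 and 3.51. Cav3 stands in this list too, and Rangrf, which aids delivery of sodium channels to the membrane, was at 3.06 and 3.04. These 4 had the largest absolute means in the list, all higher in heart.

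Of 16 genes of sarcoplasmic reticulum calcium release and uptake, which act downstream of the L-type current, 12 were higher (75.0%, against 31.4% of all genes) and 2 lower (12.5%, against 41.5%), a median of 1.40. Ryr2 and Casq2 of this list are also among the cardiomyocyte markers that set the direction of the ratio, so that these 2 were higher is no finding. Pln, the calcium pump inhibitor phospholamban, was at 7.12 and 7.23, Hrc, a calcium-binding protein of the reticulum, at 4.96 and 5.07, and Ryr2, the cardiac release channel, at 4.72 and 4.83. Fkbp1b, a subunit that binds the release channel, was lower at -5.08 and -5.01, so these 4 largest differences did not share a direction. Of 6 measured genes of related cation channels, none was called higher and 2 were lower (33.3%, against 41.5% of all genes), the proton channel gene Hvcn1 (-1.92 ± 0.05) and the endolysosomal channel gene Tpcn1 (-1.34 ± 0.09).

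**Figure D4:**
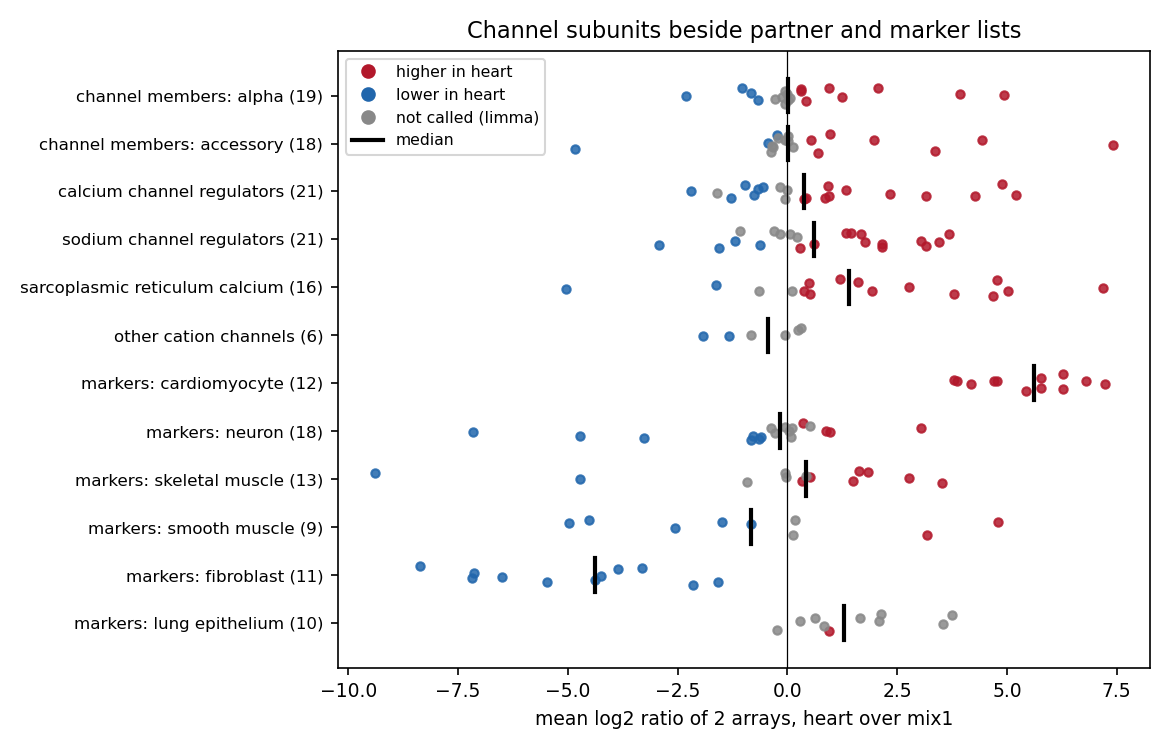
Mean log2 ratio of heart over mix1 over 2 arrays (horizontal axis) for the alpha and accessory genes beside partner lists and cell type markers, 1 point a gene, coloured by limma call, with the number of genes in brackets and a black bar at the median. The alpha and accessory medians sit at 0.02, below those of the sarcoplasmic reticulum list (1.40) and the cardiomyocyte markers (5.61).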

How the data were processed

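Per the submitters' processing notes, the authors used Agilent Feature Extraction; its version and the correction for background and dye are not stated there. The deposited table gives 1 ratio per probe and array, taken as log2; the base was inferred from the values, and natural logs were tried. Signal over background behind a ratio is unknown, and the number of arrays limits the precision. Array medians over 40012 probes were 0.01 and -0.14.

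Platform symbols, present for 20417 probes, were updated by accession through the GRCr8 gene table (16978 probes matched), and probes were averaged per gene. An intercept was fitted to all 15613 genes with limma 3.58.1 in R 4.3.3, two-sided, with Benjamini-Hochberg adjustment at 0.05. The code was tested on simulated data. Every channel gene is named; of each partner list, the 4 called genes with the largest absolute mean. The related cation channel list had 2 called. Members and lists were chosen with earlier results of these data known. Alternatives were centring, quantile normalization, probe choice, symbols, the call rule, log base and leaving out each array.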

Additional observations from a re-analysis of the deposited data

How the results depend on the processing

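Across centring of the arrays, quantile normalization, a single probe per gene and platform symbols, 13 to 15 channel genes were higher and 5 to 8 lower, against 15 and 7, and 10278 to 11599 genes in all were called. With at least 2-fold on both arrays in place of the adjusted p, 8 channel genes were higher (4 alpha, 4 accessory) and 2 lower (1 alpha, 1 accessory). By the same rule 16.3% of all 15613 genes were higher and 18.4% lower. Keeping, for each gene, the probe on which the arrays lay closest, 2 alpha genes were lower in place of 4; after centring, 1 accessory gene was lower in place of 3. The centred fit had infinite prior degrees of freedom and ignores each gene's own spread. The alpha median of 0.0154 became 0.0786 after centring, 0.0256 after quantile normalization, 0.0487 with that probe and 0.0222 read as natural logs, and lay between 0.0482 and 0.0491 on single arrays. The accessory median of 0.0238 became 0.0871 after centring, 0.0563 after quantile normalization and 0.0344 read as natural logs, stayed at 0.0238 with that probe, and lay between -0.0857 and 0.0528 on single arrays. Without replicate 1 or 2, 1 to 2 alpha genes were at least 2-fold lower.

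With the closest probe, Cacna1b turned to 0.8026 (limma adjusted p 0.00412), Cacna1s to 0.1973 and Scn8a to -0.0362, Cacna1d fell to 0.0553 and was no longer called (limma adjusted p 0.186), and Cacna1c, at 0.94 over all probes, was at 3.39 and Cacna1e, at 0.42, at 2.83. Uncalled genes near 0 changed sign after centring (Cacna1a 0.0575, Scn10a 0.0121, Scn11a 0.018, Scn2b 0.0059) or quantile normalization (Cacna1a 0.0256, Cacna1i -0.0136). After centring, Cacna1d, Scn8a, Cacnb1 and Cacng2 were no longer called. Read as natural logs, Scn4b would be 1650-fold higher in place of 170-fold, and Cacnb3 127-fold lower in place of 28.7-fold. Calls could not be made from 1 array, which leaves no residual degrees of freedom. No paired analysis was possible because the arrays form a single group. The cause of these changes was not tested.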
